A study of Arabidopsis thaliana with 20 samples.

Results

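The chloroplast genome of Arabidopsis thaliana encodes subunits of the photosynthetic complexes, part of the plastid ribosome and RNA polymerase, and the plastid ribosomal and transfer RNAs. The rows described here are those of the deposited count tables whose identifier starts with ATCG and that held at least 10 counts summed over the 20 libraries. Of 133 plastid rows, 123 met this rule, out of 36799 genes in all. By role they were 15 photosystem II genes, 5 photosystem I genes, 6 genes of the cytochrome b6f complex, 6 of the ATP synthase, 12 of the NDH complex, rbcL, 4 RNA polymerase genes, 26 ribosomal protein genes, 11 other protein genes, 7 ribosomal RNA rows, 28 transfer RNA rows and 2 rows with no annotation.

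The libraries were poly(A) RNA of whole seedlings, 5 days old and grown on sucrose-containing plates in short days at 21 °C. Warmed groups spent 4 h at 27 °C between 4 and 8 h after dawn, and the other groups stayed at 21 °C. The genotypes were the ein2-5 lhp1-3 double mutant (ein2 lhp1), lhp1-3 (lhp1), ein3-1 eil1-1 (ein3 eil1), ein2-5 (ein2) and wild-type Col-0. EIN2, EIN3 and EIL1 carry the ethylene signal, and LHP1 is a chromatin protein of the polycomb system. Each of the 10 groups had 2 libraries, and the labels give no collection time for the 21 °C seedlings. Nothing states whether replicates were separate plantings, so p-values measure only the spread between these libraries, which may be technical. The model estimates that spread over all 10 groups together. A standard error can therefore be too small for a group whose replicates differ more, such as ein2 lhp1 at 27 °C.

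Plastid genes are transcribed by a bacterial-type polymerase, whose core is plastid-encoded and whose sigma factors and associated proteins are nuclear-encoded, and by a phage-type polymerase encoded in the nucleus. Many are transcribed together as long precursors that are then cut. In plastids a poly(A) tail marks RNA for decay and stable transcripts carry none, so the counts in these libraries reflect plastid RNA that passed the poly(A) selection, not total plastid RNA. In whole seedlings, fewer green cells or plastids and less RNA per plastid cannot be told apart.

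Levels between genes are given as CPM per kb, the count scaled to a common library size and divided by exon length, averaged over the 20 libraries. They differed widely. The photosystem II gene psbM stood at 5001 CPM per kb, the ribosomal protein genes rpl32 and rpl16 at 2787 and 2691, and the ATP synthase gene atpE at 2110. The order among these differed by group. rpl16 averaged 4059 CPM per kb in wild type at 21 °C, where psbM averaged 2929, and was also above psbM in ein2 and lhp1 at 21 °C, while psbM was the highest in the other 7 groups. The large RuBisCO subunit gene rbcL stood at 461.5 CPM per kb, psbA, which encodes the D1 protein of photosystem II, at 418.7, and ndhK of the NDH complex at 391.2. By role, the highest of the others were trnL (ATCG00400) at 1533 CPM per kb, the polymerase gene rpoA at 284, ycf1 (ATCG01130), a gene of the protein import machinery, at 259.7, psaJ of photosystem I at 253.2, ATCG00290, which has no annotation, at 185, petN of the cytochrome complex at 142 and the 23S ribosomal RNA row rrn23S at 53.76. The polymerase genes other than rpoA were low, with rpoB at 12.88 CPM per kb. Both rows of ndhB, a further NDH gene, lie in the inverted repeat and share reads with each other, and stood at 0.4546 and 0.1088 CPM per kb.

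Because libraries were captured on poly(A), the densest adenine stretch of each gene was located on the coding strand in the gene and 200 bases on either side. The windows of 30 bases below are examples from psbM, rpl32 and atpE, which are some of the members with a high level per kb, followed by atpA and psbE as members with few adenines. They were picked by hand and do not show a relation between level and adenines. Capitals mark runs of at least 4 adenines, and positions are on the TAIR10.1 plastid sequence of RefSeq.
psbM (chrC:28819-28848, minus strand, upstream of the gene, 23 adenines): aaagAAAAAAAAAAtaataataataaacga
rpl32 (chrC:113667-113696, plus strand, downstream of the gene, 23 adenines): AAAAAAAAtaggaagcAAAAgaagAAAAAA
atpE (chrC:52181-52210, minus strand, downstream of the gene, 23 adenines): aaagacgatAAAAAcaatAAAAtAAAAAAA
atpA (chrC:9922-9951, minus strand, across a gene end, 17 adenines): aggagaaagtatAAAAAAcgaaacggatta
psbE (chrC:63893-63922, minus strand, downstream of the gene, 15 adenines): ctatgacacaatcaaatccgaacgaacaaa
Of the 70 protein-coding members tested that lie wholly outside the inverted repeat, 7 held a window with at least 23 adenines, a limit chosen after the levels were seen, and the median over the 70 was 20. Across these genes the adenine count of the densest window and the log2 level had a Spearman correlation of 0.17, as a description only, since neighbouring genes share windows and libraries. ndhK, with 25 adenines in its densest window, stood at 391.2 CPM per kb, against 2110 for atpE with 23. The part of the adenines in the level was not tested.

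The plastid rows took 0.836% to 1.6% of the counts of a library, of totals between 24153109 and 47566071 counts. Nuclear ribosomal RNA rows, which like stable plastid RNA lack a poly(A) tail, took 0.894% to 3.05%, and AT3G06365, beside such rows, took 3.15% to 10%. The second ein2 lhp1 library at 27 °C had the highest plastid share and the highest nuclear ribosomal RNA share, as the plot of shares by library shows. The part of these rows in the plastid differences was not tested. Leaving these rows out of the fit moved no total of called plastid genes by over 1.5 times. That refit left the plastid counts as they were, so it cannot show the part of RNA without a tail in them. The 3 green shoot markers RBCS1A, CAB1 and CA1 summed to 31160 to 65970 CPM over the libraries. The 3 root markers PYK10, PRX57 and BGLU21 summed to 2634 to 5711 CPM. The 4 seed storage genes CRA1, CRU3, SESA2 and SESA5 summed to 3.825 to 295.3 CPM in the mutants and 0.884 to 1.097 CPM in wild type. EIN2 was lower than wild type in ein2 and EIN3 and EIL1 in ein3 eil1 at 21 °C, with log2 differences of -1.47, -1.81 and -1.24. LHP1 in lhp1 was called lower at 27 °C, with -0.97, and its difference of -0.29 at 21 °C was not called.

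**Figure D1:**
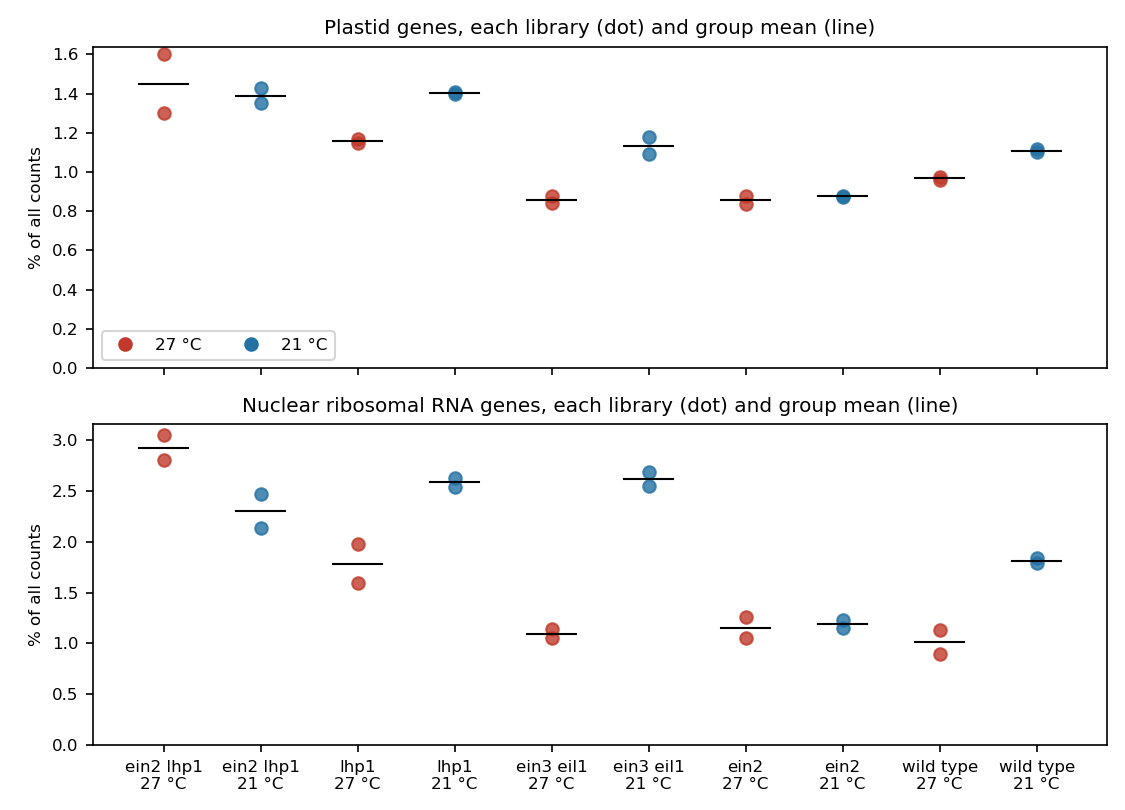
Percent of all counts on plastid rows (top) and on nuclear ribosomal RNA rows (bottom) in each library, with 27 °C in red and 21 °C in blue and group means as lines. The ein2 lhp1 libraries at 27 °C lie at 1.3% and 1.6% for plastid rows, and the wild-type ones at 0.975% and 0.962%.

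Which plastid genes made up these counts differed by group. In ein2 lhp1 at 27 °C the ribosomal protein genes took 13.2% and 14.7% of the plastid counts, against 34.4% and 35.7% in wild type at 27 °C. Photosystem II genes took 21.2% and 19.4% in ein2 lhp1 at 27 °C, against 10.5% and 9.75% in wild type. In ein3 eil1 the photosystem II share was 21.5% and 21.6% at 21 °C, against 9.18% and 9.51% in wild type at 21 °C. The mutant and wild-type libraries did not overlap in any of these 3 shares. The ribosomal protein share at 21 °C was 22.9% and 22.4% in ein3 eil1, against 37.4% and 36.2% in wild type. With 2 libraries a group, an exact permutation test on such a share cannot go below the threshold, so no p is given.

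**Figure D2:**
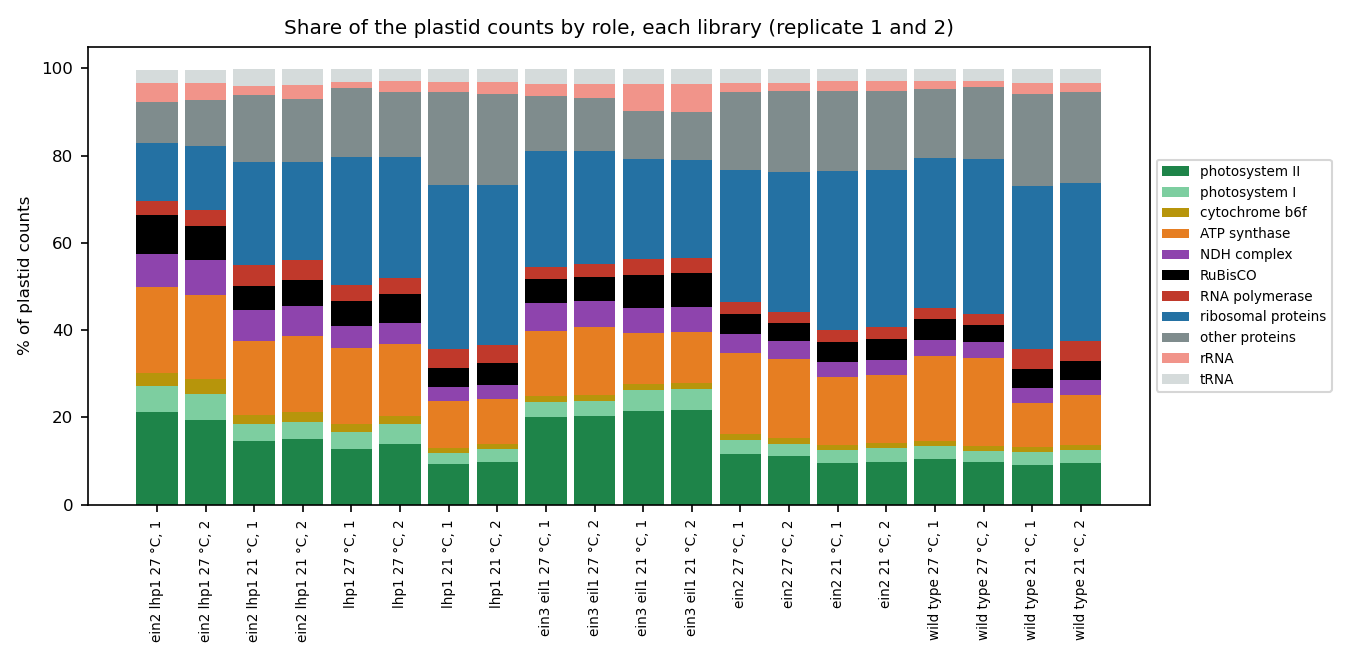
Percent of the plastid counts that fell on genes of each role, 1 bar per library. Ribosomal protein genes (blue) hold 13.2% and 14.7% in ein2 lhp1 at 27 °C and 34.4% and 35.7% in wild type at 27 °C.

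Tests across genes were run with edgeR's quasi-likelihood model on all 21987 genes that passed the filter on low counts, scaled so that most genes, which are nuclear, do not move, and calls were made at adjusted p values under 0.05 by Benjamini-Hochberg. Of the 123 members, 115 were tested and 8 were under the filter. A change below is thus relative to nuclear transcripts. With the scaling taken from the plastid rows alone, the median of all genes shifted by -1.95 to 0.73 log2 units depending on the comparison, and calls then describe a plastid gene against the other plastid genes. The shares of all genes given below belong to the main fit, and do not apply to counts under that scaling or another setting. The largest changes named below were ranked among called members with a mean of at least 2 CPM.

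Wild-type seedlings at 27 °C held less captured plastid RNA than at 21 °C for most genes, with a small group moving the other way. Of the 115 members, 3 rose and 71 fell, where 18.8% of all genes rose and 20.3% fell, and 39.2% were called in all. The median log2 change over the members was -0.50, against 0.00 over all genes. The ATP synthase gene atpB, which encodes the beta subunit, stood at 722.9 and 736.9 CPM at 27 °C, against 291.7 and 327 CPM at 21 °C. It rose by 1.24 ± 0.05 log2 units (SE, adjusted p 1.66e-33). The 27 °C libraries lie far above the 21 °C ones.

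The other 2 genes that rose in wild type lie near atpB on the same strand. ndhJ of the NDH complex was at 29.85 and 26.87 CPM at 27 °C and 14.87 and 16.81 CPM at 21 °C, a log2 change of 0.84 ± 0.086 (adjusted p 2.45e-13). atpE, the neighbour of atpB, rose by 0.33 ± 0.043 (adjusted p 7.7e-10). The genes ndhK and ndhC, which adjoin ndhJ, fell, so the 3 genes of that group ranged from -0.55 to 0.84.

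All 4 plastid-encoded polymerase subunit genes fell in wild type, with a median log2 change of -1.15. rpoA, for the alpha subunit, was at 153.7 and 156.4 CPM at 27 °C, against 377.4 CPM in each library at 21 °C, a log2 change of -1.28 ± 0.042 (adjusted p 4.26e-39). rpoB, for the beta subunit, changed by -0.79 ± 0.081 (adjusted p 2.44e-13). Among called members with a mean of at least 2 CPM, the ribosomal protein gene rps18 had the largest decrease, -1.30 ± 0.074 (adjusted p 2.52e-25), at 22.16 and 21.28 CPM at 27 °C against 52.95 and 53.7 CPM at 21 °C. In rpoA and rps18 the temperatures did not overlap, which adds no support, since both were named for their decrease.

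Photosystem genes fell less than the polymerase genes in wild type: 5 of 5 photosystem I genes fell with a median of -0.47, and 9 of 15 photosystem II genes with a median of -0.40. psaA, a core protein of photosystem I, changed by -0.52 ± 0.064 (adjusted p 1.49e-10), psbA by -0.46 ± 0.073 (adjusted p 2.8e-07) and rbcL by -0.41 ± 0.062 (adjusted p 5.32e-08). Without the second wild-type library at 27 °C, psbA changed by -0.30 and rbcL by -0.26. psbD and psbM were at -0.10 and -0.04 and were not called. The cytochrome gene petB changed by -0.44 ± 0.072 (adjusted p 3.75e-07).

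Further genes with other roles fell in wild type as well, in 8 of 11 cases. The acetyl-CoA carboxylase gene accD changed by -0.87 ± 0.13, the protease gene clpP by -0.82 ± 0.066, the intron maturase gene matK by -0.72 ± 0.073 and ycf1 by -0.73 ± 0.038, with adjusted p from 3.1e-27 to 8.9e-08. ycf1 was at 1238 and 1251 CPM at 27 °C, against 2067 and 2064 CPM at 21 °C. Among the ribosomal protein genes 0 rose and 14 of 24 fell, and rpl16 changed by -0.67 ± 0.045 (adjusted p 1.27e-21). With scaling to the plastid rows, 29 members rose and 7 fell, with psbA, rbcL, psaA and petB then above 0, and with a gene length trend removed 14 rose and 42 fell. The nuclear ribosomal RNA share was 1.13% and 0.894% at 27 °C, against 1.79% and 1.84% at 21 °C, and the plastid share 0.975% and 0.962% against 1.1% and 1.12%. Green shoot markers summed to 31530 and 31460 CPM at 27 °C, against 44870 and 44730 CPM at 21 °C, with 1 of 3 higher and 2 lower, and root markers to 3308 and 3289 CPM against 2724 and 2712 CPM, with 1 of 3 higher and 1 lower. The part of these shares and markers in the decrease was not tested.

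**Figure D3:**
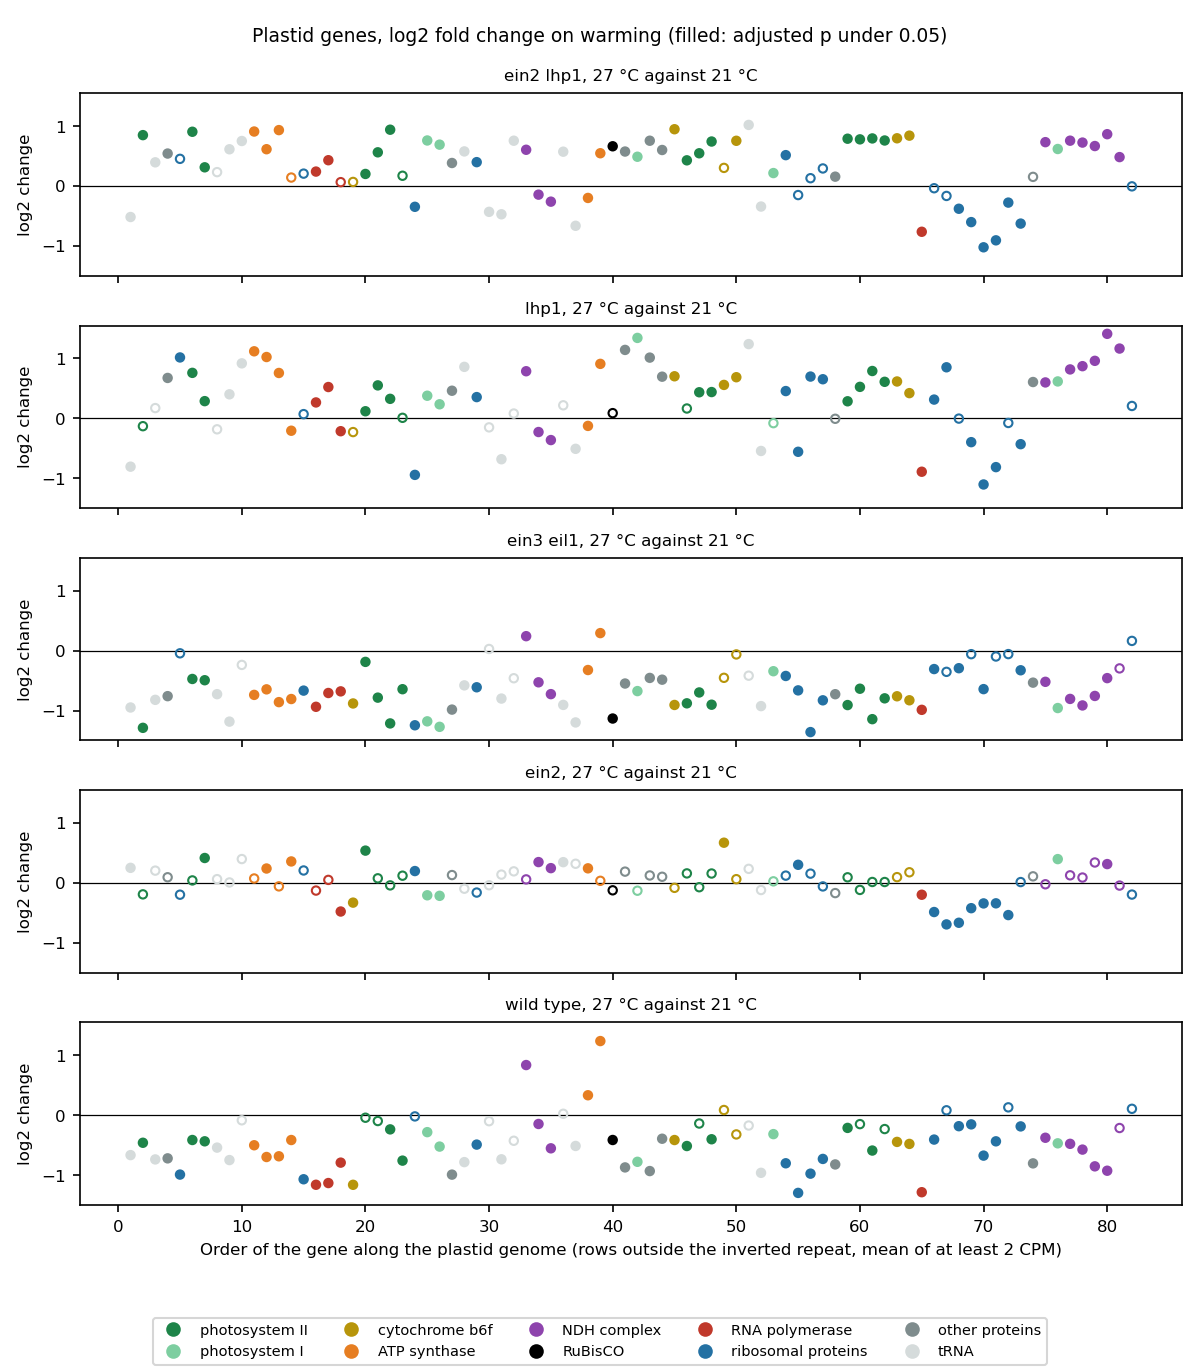
Log2 fold change at 27 °C against 21 °C in each genotype for the 82 plastid genes outside the inverted repeat with a mean of at least 2 CPM, in their order along the plastid genome, coloured by role and filled where called. In wild type atpB stands at 1.24 above a field of negative values, while in ein2 lhp1 and lhp1 most points lie above 0.

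In ein3 eil1 most plastid genes fell on warming, photosystem genes included. Of 115 members, 2 rose and 81 fell, where 16.9% of all genes rose, 19.9% fell and 36.8% were called, and the median log2 change was -0.74. 14 of 15 photosystem II genes and 5 of 5 photosystem I genes fell. psbA was at 395.2 and 437.5 CPM at 27 °C, against 969.1 and 1062 CPM at 21 °C, a log2 change of -1.29 ± 0.071 (adjusted p 7.61e-26). psaA changed by -1.27 ± 0.063 (adjusted p 1.1e-28) and rbcL by -1.13 ± 0.061 (adjusted p 2.32e-26). The ribosomal RNA rows ATCG01180 (23S) and ATCG01210 (16S) changed by -1.74 ± 0.11 and -1.73 ± 0.13, with adjusted p of 3.84e-23 and 9.89e-20, but lie in the inverted repeat and share reads with their second copy.

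The 2 genes that rose in ein3 eil1 were again atpB, by 0.29 ± 0.051 (adjusted p 2.05e-06), and ndhJ, by 0.24 ± 0.084 (adjusted p 0.017). Without replicate 1 of ein3 eil1 at either temperature ndhJ was no longer called, and its log2 change was at the lowest 0.15. Relative to the plastid rows, 22 members rose and 15 fell. Nuclear ribosomal RNA took 1.05% and 1.14% at 27 °C, against 2.55% and 2.69% at 21 °C. The sum of green shoot markers was 44560 and 44470 CPM at 27 °C, against 63490 and 62930 CPM at 21 °C, with 2 of 3 lower and 0 higher, and that of seed storage genes 3.825 and 6.02 CPM against 17.55 and 15.59 CPM, with 4 of 4 lower. Their part in the decrease was not tested.

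In ein2 warming moved few plastid genes. Of 115 members 14 rose and 15 fell, where 11.8% of all genes rose, 15.4% fell and 27.1% were called, so the share of members called was close to that over all genes. All 8 genes from rpl22 to rpoA, which are neighbours in a ribosomal protein cluster, fell, with values between -0.69 and -0.20. Of these rpl36 changed by -0.69 ± 0.12 (adjusted p 3.36e-06). psbM rose by 0.54 ± 0.038 (adjusted p 7.7e-20), at 350.3 and 327.3 CPM at 27 °C against 227 and 239 CPM at 21 °C. The cytochrome gene petL had 0.67 ± 0.24 (adjusted p 0.0269), a call lost without any single library of the 4 compared. Without the first 27 °C library 7 rose, without the first 21 °C library 8 rose, and without the second 27 °C library 9 fell. DESeq2 called 9 higher and 10 lower, and with scaling to the plastid rows 1 rose and 12 fell.

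In lhp1 warming raised most photosynthetic genes and lowered part of the ribosomal protein genes. Of 115 members 52 rose and 23 fell, where 16.2% of all genes rose, 15.6% fell and 31.7% were called, and the median log2 change was 0.28. All 7 genes from ndhH to ndhD, neighbours that encode NDH subunits and the photosystem I protein psaC, rose, with values from 0.60 to 1.41. ndhA stood at 78.93 and 80.32 CPM at 27 °C, against 30.88 and 28.95 CPM at 21 °C, a rise of 1.41 ± 0.089 (adjusted p 1.66e-22). The 5 genes from accD to petA also all rose, led by psaI of photosystem I with 1.34 ± 0.16 (adjusted p 7.99e-11), and atpB rose by 0.91 ± 0.05 (adjusted p 9.5e-26).

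The decreases in lhp1 were led by rpl16, at 949.5 and 913.8 CPM at 27 °C against 2028 and 1976 CPM at 21 °C, a log2 change of -1.10 ± 0.045 (adjusted p 5.36e-33). ycf1 changed by -1.04 ± 0.038 (adjusted p 1.06e-35). rps14, a ribosomal protein gene downstream of psaA and psaB, changed by -0.94 ± 0.065 (adjusted p 9.94e-21), while the 2 photosystem genes of that group rose. rbcL, at 0.09 ± 0.061, was not called. Scaled to the plastid rows, 33 members rose and 18 fell. The plastid share was 1.17% and 1.15% at 27 °C against 1.4% and 1.41% at 21 °C, although more members rose than fell. Seed storage genes summed to 13.11 and 14.62 CPM at 27 °C, against 294.9 and 295.3 CPM at 21 °C, with 4 of 4 lower, and their part in the result was not tested.

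In ein2 lhp1 photosynthetic genes rose on warming and the ribosomal protein cluster fell. Of 115 members 57 rose and 18 fell, where 14.3% of all genes rose, 14.7% fell and 29% were called, and the median log2 change was 0.48. 13 of 15 photosystem II genes, 5 of 5 photosystem I genes and 4 of 6 cytochrome genes rose. psbA was at 866.4 and 875.8 CPM at 27 °C, against 422.1 and 545.4 CPM at 21 °C, a rise of 0.85 ± 0.071 (adjusted p 1.67e-16). psaA rose by 0.69 ± 0.061 (adjusted p 1.04e-15), rbcL by 0.66 ± 0.061 (adjusted p 5.88e-15) and petA, for cytochrome f, by 0.95 ± 0.086 (adjusted p 3.84e-15).

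ycf1 and rpl16 fell in ein2 lhp1, by log2 changes of -1.24 ± 0.039 and -1.02 ± 0.046, with adjusted p of 1.95e-39 and 2.03e-30. ycf1 was at 588.5 and 731.8 CPM at 27 °C, against 1522 and 1590 CPM at 21 °C. The transfer RNA row trnW had the largest rise, 1.02 ± 0.23 (adjusted p 0.000207), from a low mean. The replicates at 27 °C differed more than in other groups, with a variance over mean of 14.9 for members of 20 to 1000 counts, against 1.6 to 5.45 in the other 9 groups. The median log2 change was 0.20 without the second library at 27 °C and 0.66 without the first. Relative to the plastid rows, 34 members rose and 21 fell.

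Averaged over the 5 genotypes, 14 members rose and 46 fell on warming, where 26.9% of all genes rose, 28% fell and 55% were called. The largest rises were atpB with 0.60 ± 0.022 (adjusted p 1.13e-36) and ndhJ with 0.51 ± 0.037 (adjusted p 6.44e-20). The largest decreases were rpoA with -0.82 ± 0.019 and rpl16 with -0.76 ± 0.02, with adjusted p of 7.5e-50 and 3.08e-45. With scaling to the plastid rows 41 rose and 22 fell, and with a length trend removed 40 rose and 31 fell, so the split of the average rested on the scaling. Without the first ein2 lhp1 library at 27 °C 24 rose, and without the second 7 rose. The directions of those 4 genes held in both.

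The mutants were next compared with wild type at each temperature. All 4 mutants share the same wild-type libraries, so their values are not independent of each other.

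The double mutant ein2 lhp1 showed the largest differences, and they were largest at 27 °C. Of 115 members, 96 were higher and 5 lower than in wild type at 27 °C, where 24% of all genes were higher, 23% lower and 47% called, and the median log2 difference was 2.09. At 21 °C 92 were higher and 4 lower, where 17.6% of all genes were higher, 16.1% lower and 33.8% called, with a median of 1.09. At 27 °C all 15 photosystem II, 5 photosystem I, 6 cytochrome, 6 ATP synthase and 4 polymerase genes were called higher, and 11 of 12 NDH genes.

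The largest difference was in ndhA, a membrane subunit of the NDH complex. It stood at 216 and 334.2 CPM in ein2 lhp1 at 27 °C, against 18.14 and 13.53 CPM in wild type, 4.11 ± 0.096 log2 units (adjusted p 4.75e-49). At 21 °C it was at 153.5 and 149.8 CPM in ein2 lhp1, against 30.44 and 30.17 CPM in wild type, and differed by 2.32 ± 0.088 (adjusted p 2.59e-35). The groups did not overlap at either temperature, and at 27 °C this adds no support, since ndhA was named for its difference there.

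Genes adjoining ndhA on the same strand were also higher. The 7 genes from ndhH to ndhD had a median difference of 3.26 at 27 °C, with a range of 2.31 to 4.11, and ndhI was higher by 3.85 ± 0.12 (adjusted p 3.84e-41). The 5 genes from accD to petA had a median of 3.22, with accD at 57.93 and 89.89 CPM in ein2 lhp1 against 6.385 and 5.393 CPM in wild type, 3.65 ± 0.12 log2 units (adjusted p 1.31e-39). ycf4, a photosystem I assembly gene of that group, was higher by 3.60 ± 0.11 (adjusted p 4.09e-43). The 4 genes from atpI to atpA had a median of 3.14, with atpF highest, at 3.64 ± 0.078 (adjusted p 9.41e-51). At 21 °C the 2 largest differences among members with a mean of at least 2 CPM were in ndhI and atpF, each 2.33, with adjusted p of 1.43e-29 and 8.27e-40.

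The core genes of the photosynthetic complexes were higher as well. psbA was at 866.4 and 875.8 CPM in ein2 lhp1 at 27 °C, against 239.2 and 187.5 CPM in wild type, 2.03 ± 0.072 log2 units (adjusted p 1.14e-36). psaA was higher by 2.05 ± 0.063, psbD by 2.17 ± 0.055, petB by 2.96 ± 0.068, rbcL by 1.91 ± 0.061 and psbM by 1.60 ± 0.037, with adjusted p between 3.96e-49 and 1.31e-39. At 21 °C psbA was higher by 0.72 ± 0.072 and rbcL by 0.84 ± 0.061, with adjusted p of 1.72e-13 and 1.34e-19. Of the ATP synthase genes, atpB and atpE differed least at 27 °C, at 0.34 ± 0.049 and 0.43 ± 0.043, with adjusted p of 1.7e-08 and 6.71e-14, and atpB was at 0.21 without the second ein2 lhp1 library.

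Part of the ribosomal protein cluster was lower in ein2 lhp1. rps3 was at 240.7 and 341.2 CPM at 27 °C, against 705.6 and 724 CPM in wild type, -1.29 ± 0.051 log2 units (adjusted p 2.54e-34). rpl16 was at 451.9 and 616.8 CPM against 1035 and 1042 CPM, -0.96 ± 0.046 (adjusted p 1.35e-29). Both genes were below wild type in each library, which adds no support, since they were named for their decrease.

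Within the 8 genes from rpl22 to rpoA the differences ran from -1.29 to 1.45 at 27 °C, with 4 higher and 4 lower. rpl14 had -0.65 ± 0.065 (adjusted p 4.1e-14), a value of -1.04 without the second ein2 lhp1 library and -0.36 without the first, and rpoA at the far end 0.86 ± 0.042 (adjusted p 7.98e-29). ycf1 had -0.91 ± 0.039 (adjusted p 1.31e-32), at 588.5 and 731.8 CPM in ein2 lhp1 against 1238 and 1251 CPM in wild type. rpl32 had -0.04 and was not called. At 21 °C rps3 and rpl16 were also the 2 lowest, at -0.82 ± 0.05 and -0.61 ± 0.045, with adjusted p of 1.49e-23 and 3.03e-19.

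The genes matK, rpoB and rps14, for an intron maturase, a polymerase subunit and a ribosomal protein, were higher in ein2 lhp1 at 27 °C, with matK at 3.06 ± 0.07 (adjusted p 9.58e-49), rpoB at 1.28 ± 0.081 (adjusted p 4.86e-23) and rps14 at 0.77 ± 0.064 (adjusted p 2.07e-17). Of the low ndhB rows, ATCG00890 was higher by 1.53 ± 0.6 (adjusted p 0.0294), and ATCG01250 was not called. That call was lost without either wild-type library at 27 °C or without the second ein2 lhp1 library, where the difference was 0.95. With scaling to the plastid rows, 42 members were higher and 36 lower at 27 °C, and 33 and 28 at 21 °C. rbcL, psbM, rpoB, atpB, atpE, rpoA, rps14 and ndhB were then below 0, while ndhA, accD, atpF, rps3 and rpl16 kept their direction. Across the 70 protein-coding members outside the inverted repeat, the log2 difference at 27 °C and the log2 level per kb in the wild-type libraries at 21 °C, which did not enter that difference, had a Spearman correlation of -0.68, a description in which neighbours are not independent. The same correlation for lhp1 against wild type at 27 °C was -0.72, so the relation was not particular to ein2 lhp1. The 7 members with at least 23 adenines in their densest window, a limit set after the levels were seen, had a median difference of 0.86. The other 63 had 2.30, and at 21 °C the 2 medians were 0.96 and 1.27. Among the 7 are psbM, rpl32 and atpE, which have a high level per kb. Across the 70 genes the adenine count of that window and the difference at 27 °C had a Spearman correlation of -0.17. The part of the adenines in the difference was not tested.

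The double mutant also differed from wild type outside the plastid genes. Nuclear ribosomal RNA took 2.8% and 3.05% of counts in ein2 lhp1 at 27 °C, against 1.13% and 0.894% in wild type. Of the 10 mitochondrial rows tested, 9 were higher and 0 lower at 27 °C, where 24% of all genes were higher and 23% lower. Their median log2 difference was 1.84. At 21 °C mitochondrial rows took 0.0104% and 0.0107% of counts in ein2 lhp1, against 0.00557% and 0.00616% in wild type. Green shoot markers summed to 59230 and 56970 CPM in ein2 lhp1 at 27 °C, against 31530 and 31460 CPM in wild type, with 2 of 3 higher and 1 lower. Seed storage genes summed to 137 and 147.1 CPM against 1.035 and 0.884 CPM, with 4 of 4 higher. The other mutants at 27 °C were below ein2 lhp1 in these shares and sums, but at 21 °C some were near or above it. In ein3 eil1 at 21 °C nuclear ribosomal RNA took 2.55% and 2.69%, and green shoot markers summed to 63490 and 62930 CPM. In lhp1 at 21 °C seed storage genes summed to 294.9 and 295.3 CPM. The part of the ribosomal RNA, mitochondrial rows and markers in the plastid differences was not tested.

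**Figure D4:**
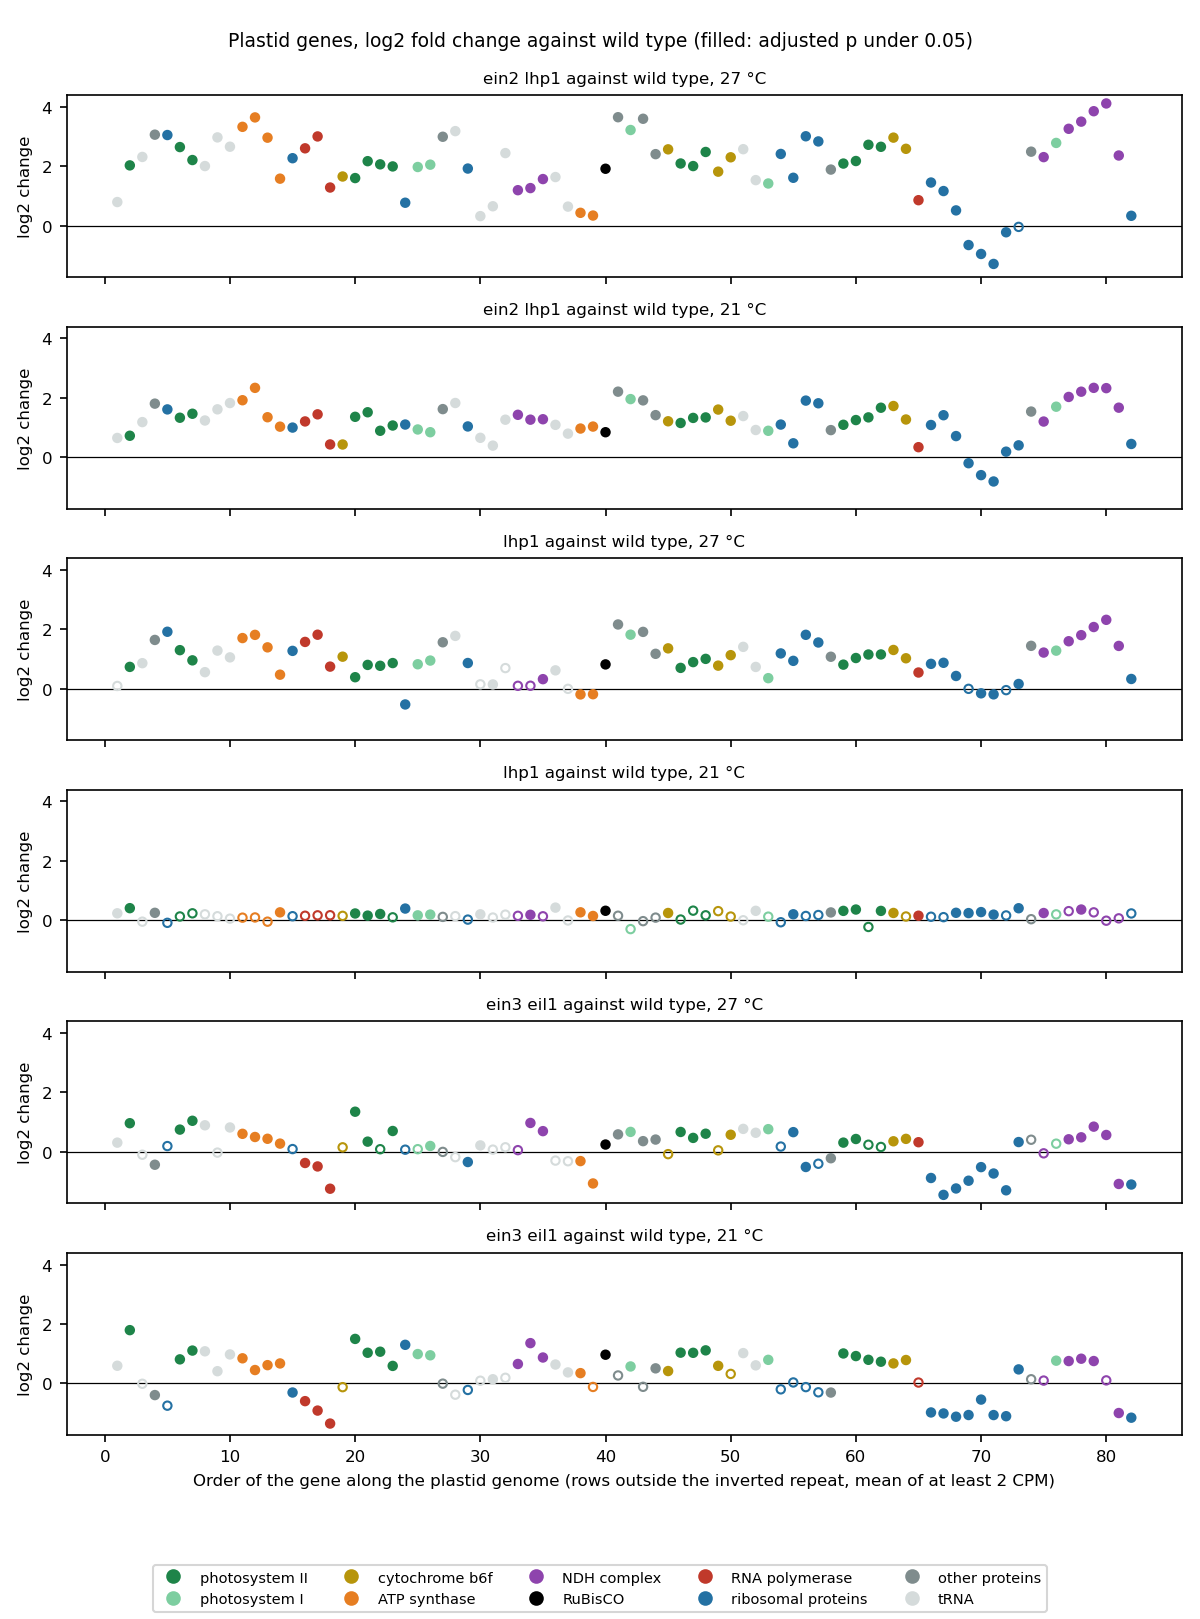
Log2 fold change against wild type for ein2 lhp1, lhp1 and ein3 eil1 at 27 °C and 21 °C, for the same 82 genes in genome order, filled where called. The ribosomal protein cluster (blue, to the right) dips to -1.29 in ein2 lhp1 at 27 °C beside ndhA at 4.11.

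Against wild type, lhp1 differed mainly at 27 °C. There 78 members were higher and 5 lower, where 14.3% of all genes were higher, 12.5% lower and 26.7% called, and the median log2 difference was 0.89. At 21 °C 39 were higher and 0 lower, where 12.6% of all genes were higher, 15.7% lower and 28.3% called, with a median of 0.18. The count of 39 was 21 without the second lhp1 library and 22 without the first wild-type library at 21 °C, and DESeq2 called 17. At 21 °C the largest was rps7 (ATCG01240) with 0.71 ± 0.24 (adjusted p 0.0191), an inverted-repeat row whose call was lost without any 1 of the 4 libraries. trnV had 0.43 ± 0.13 (adjusted p 0.00813), lost without the first wild-type or the second lhp1 library.

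At 27 °C ndhA was at 78.93 and 80.32 CPM in lhp1, against 18.14 and 13.53 CPM in wild type, 2.32 ± 0.099 log2 units (adjusted p 2.22e-32), and accD was higher by 2.16 ± 0.13 (adjusted p 6.08e-25). psaA was higher by 0.95 ± 0.063, rbcL by 0.82 ± 0.061 and psbA by 0.73 ± 0.073, with adjusted p from 3.46e-21 to 1.73e-13. rps14 was at 50.04 and 49.99 CPM in lhp1, against 74.37 and 70.1 CPM in wild type, -0.53 ± 0.066 (adjusted p 3.51e-10). psaA, upstream in the same group, was higher, so the group did not move as one.

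atpE and atpB were lower in lhp1 by small amounts, with log2 differences of -0.19 each and adjusted p of 0.000238 and 0.00211, and neither call held without the second lhp1 library at 27 °C, when 1 member in all was called lower. ycf1 had -0.04 and was not called. Scaled to the plastid rows, 25 members were higher and 34 lower at 27 °C, with psaA, rbcL and psbA below 0, and 0 higher and 1 lower at 21 °C. Nuclear ribosomal RNA took 1.59% and 1.98% of counts in lhp1 at 27 °C, against 1.13% and 0.894% in wild type. At 21 °C it took 2.54% and 2.63% in lhp1, against 1.79% and 1.84% in wild type. Also at 21 °C, green shoot markers summed to 33810 and 33030 CPM in lhp1, against 44870 and 44730 CPM in wild type, with 3 of 3 lower, and seed storage genes to 294.9 and 295.3 CPM against 1.097 and 1.024 CPM, with 4 of 4 higher. At 27 °C seed storage genes summed to 13.11 and 14.62 CPM in lhp1, against 1.035 and 0.884 CPM in wild type, with 3 of 4 higher. The part of these in the differences was not tested.

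In ein3 eil1 at 21 °C photosystem genes were mostly higher, and more ribosomal protein and polymerase genes were lower than higher. NDH genes went in both directions. Against wild type at 21 °C, 54 members were higher and 18 lower, where 15.2% of all genes were higher, 16.3% lower and 31.5% called. 14 of 15 photosystem II genes and 5 of 5 photosystem I genes were higher, with medians of 1.03 and 0.79. Of the ribosomal protein genes 3 of 24 were higher and 11 lower, and of the polymerase genes 0 of 4 were higher and 3 lower. Across the 70 protein-coding members tested outside the inverted repeat, the difference was also lower in genes with a higher percent of adenines. The Spearman correlation was -0.66 at 21 °C and -0.56 at 27 °C, as a description in which neighbours are not independent. Role and base composition were not tested against each other.

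psbA was at 969.1 and 1062 CPM in ein3 eil1 at 21 °C, against 282.5 and 304.7 CPM in wild type, 1.79 ± 0.071 log2 units (adjusted p 1.66e-33). psbM was at 823.9 and 908.9 CPM against 309.4 and 305.7 CPM, 1.5 ± 0.037 (adjusted p 3.28e-46). The ein3 eil1 libraries were above wild type in both genes with no overlap. psbD was higher by 1.03 ± 0.055, rbcL by 0.96 ± 0.061 and psaA by 0.94 ± 0.062, with adjusted p from 1.27e-26 to 1.23e-22. The 16S ribosomal RNA row ATCG01210 was higher by 1.72 ± 0.13 (adjusted p 1.26e-19), with reads shared with its copy.

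rpoB was the lowest in ein3 eil1 at 21 °C, at 18.38 and 20.26 CPM against 48.9 and 50.68 CPM in wild type, -1.35 ± 0.087 log2 units (adjusted p 1.27e-22). Its neighbours rpoC1 and rpoC2 were also lower, so the 3 genes ranged from -1.35 to -0.60. rps3 was at 449 and 471.6 CPM against 975.1 and 957.5 CPM, -1.07 ± 0.05 (adjusted p 8.8e-30). rpl14 had -1.07 ± 0.064, ycf1 -0.82 ± 0.038 and rpl16 -0.55 ± 0.045, with adjusted p from 8.4e-30 to 3.25e-17.

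At its far end the ribosomal protein cluster behaved otherwise, with rpoA at 0.03 and not called. rps15 and ndhH, which are neighbours, had -1.16 ± 0.13 and -1.0 ± 0.12, with adjusted p of 5.43e-12 and 1.41e-10, while the NDH genes ndhI, ndhG and ndhE were higher by 0.75 to 0.83. ndhA and ndhD, at 0.10 and 0.09, were not called. accD and atpB, at 0.26 and -0.12, were not called. Relative to the plastid rows, 34 members were higher and 30 lower. Nuclear ribosomal RNA took 2.55% and 2.69% of counts in ein3 eil1 at 21 °C, against 1.79% and 1.84% in wild type, and green shoot markers summed to 63490 and 62930 CPM against 44870 and 44730 CPM, with 3 of 3 higher.

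At 27 °C 46 members were higher in ein3 eil1 and 22 lower, where 17.4% of all genes were higher, 19.2% lower and 36.6% called. psbM was at 742.9 and 779.8 CPM in ein3 eil1, against 296.1 and 301.7 CPM in wild type, 1.35 ± 0.037 (adjusted p 1.38e-43), and psbI was higher by 1.04 ± 0.1 (adjusted p 6.49e-14). rpl36 and rps19 had -1.45 ± 0.13 and -1.31 ± 0.079, with adjusted p of 1.6e-15 and 3.56e-24. All but 1 of the 8 genes from rpl22 to rpoA were lower, the exception being rpoA. Scaling to the plastid rows gave 20 higher and 27 lower, and removing a length trend 32 and 26. Nuclear ribosomal RNA took 1.05% and 1.14% of counts in ein3 eil1 at 27 °C, against 1.13% and 0.894% in wild type, ranges that overlap, and green shoot markers summed to 44560 and 44470 CPM against 31530 and 31460 CPM, with 2 of 3 higher.

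**Figure D5:**
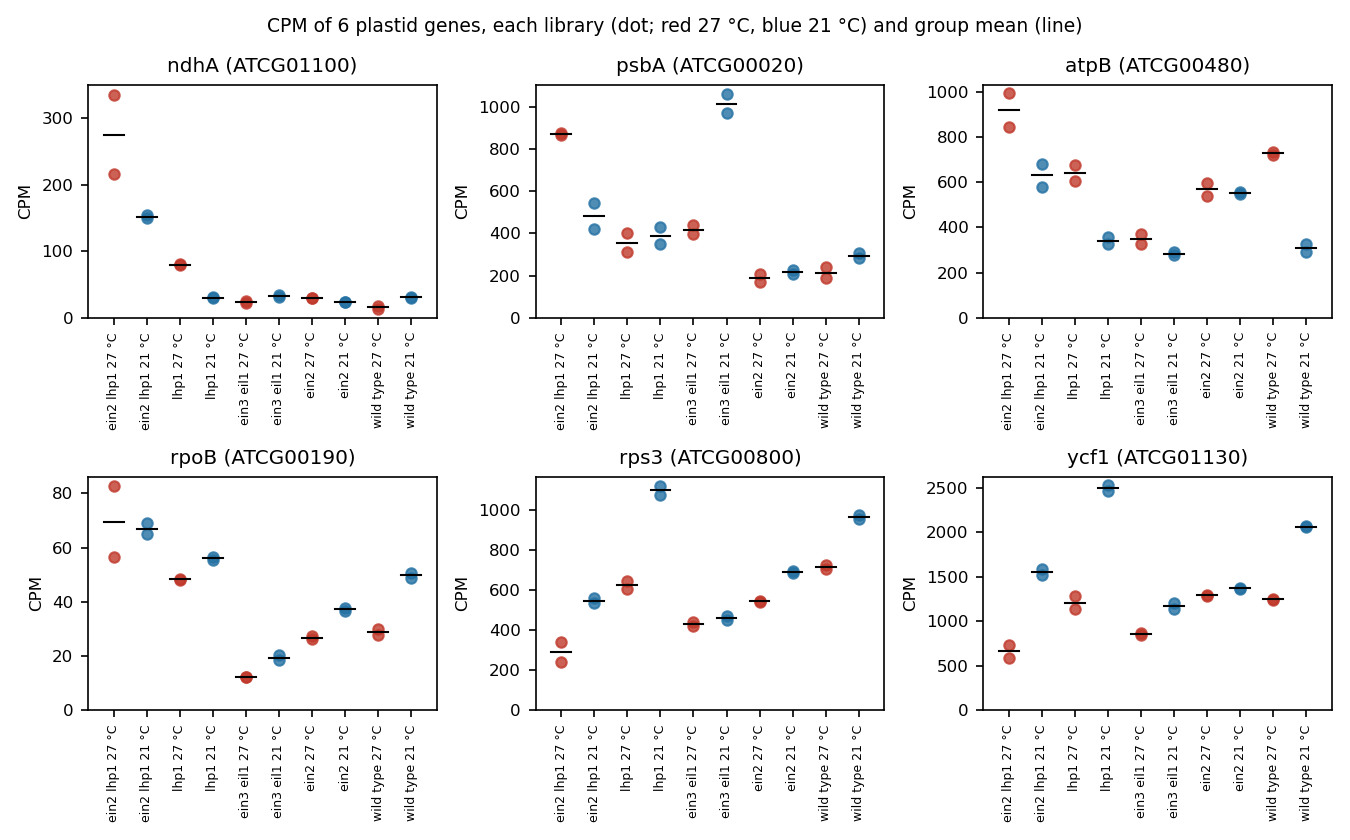
CPM of ndhA, psbA, atpB, rpoB, rps3 and ycf1 in each library, with 27 °C in red and 21 °C in blue and group means as lines. ndhA reaches 216 and 334.2 CPM in ein2 lhp1 at 27 °C, psbA 969.1 and 1062 CPM in ein3 eil1 at 21 °C, and rpoB is lowest in ein3 eil1 at 27 °C.

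In ein2 most called plastid genes were lower than in wild type at 21 °C, and most were higher at 27 °C. That split was the one of the main scaling, and scaling to the plastid rows reversed it at both temperatures. At 21 °C 6 members were higher and 58 lower, where 18.5% of all genes were higher, 17.4% lower and 35.9% called, and the median log2 difference was -0.36. At 27 °C 31 were higher and 11 lower, where 19.8% of all genes were higher, 18.3% lower and 38.1% called, so the share called was below that over all genes. At 21 °C atpB was at 559.4 and 549.4 CPM in ein2, against 291.7 and 327 CPM in wild type, 0.84 ± 0.05 log2 units (adjusted p 4.61e-24), and ndhJ was higher by 0.57 ± 0.089 (adjusted p 1.78e-07).

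rpoA was at 160 and 160.5 CPM in ein2 at 21 °C, against 377.4 CPM in each wild-type library, -1.24 ± 0.042 (adjusted p 2.87e-38), and rps18 had -1.18 ± 0.075 (adjusted p 8.44e-23). This comparison and that of warming in wild type use the same wild-type libraries at 21 °C. At 27 °C ndhA and accD were higher by 0.88 ± 0.11 and 0.80 ± 0.14, with adjusted p of 6.41e-11 and 1.04e-06. rpl22 and rps19 had -0.43 ± 0.065 and -0.41 ± 0.075, with adjusted p of 7.82e-08 and 6.04e-06. Scaling to the plastid rows gave 19 higher and 4 lower at 21 °C and 4 higher and 19 lower at 27 °C, and removing a length trend gave 8 higher and 35 lower at 21 °C and 15 higher and 18 lower at 27 °C. Nuclear ribosomal RNA took 1.15% and 1.23% of counts in ein2 at 21 °C, against 1.79% and 1.84% in wild type. At 21 °C root markers summed to 5711 and 5639 CPM in ein2, against 2724 and 2712 CPM in wild type, with 2 of 3 higher and 1 lower. Seed storage genes were at 89.45 and 93.27 CPM in ein2, against 1.097 and 1.024 CPM, with 3 of 4 higher, and green shoot markers at 39440 and 39460 CPM against 44870 and 44730 CPM, with 3 of 3 lower. At 27 °C the sums in ein2 and wild type were 4609 and 4582 against 3308 and 3289 CPM for root markers and 37160 and 37120 against 31530 and 31460 CPM for green shoot markers, each with 2 of 3 higher and 1 lower. Their part in the differences was not tested.

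The double mutant was then set against each single mutant, in comparisons added after the data were seen. Against ein2, 94 members were higher and 5 lower at 27 °C, where 19.1% of all genes were higher, 18.3% lower and 37.4% called, and 93 higher and 1 lower at 21 °C, where 17.9% were higher, 19% lower and 36.8% called. Against lhp1, 86 were higher and 6 lower at 27 °C, where 18.6% of all genes were higher, 15.9% lower and 34.4% called, and 85 higher and 5 lower at 21 °C, where 19.3% were higher, 16.6% lower and 35.9% called. The median log2 differences were 1.98 and 1.51 against ein2 at 27 °C and 21 °C, and 1.14 and 0.92 against lhp1.

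ndhA was higher in ein2 lhp1 by 3.23 ± 0.089 against ein2 and 1.79 ± 0.08 against lhp1 at 27 °C, with adjusted p of 1.01e-43 and 5.34e-31. At 27 °C ndhI was higher by 3.15 ± 0.11 against ein2, and atpF by 1.83 ± 0.07 against lhp1. At 21 °C ndhI and atpF were higher by 2.83 ± 0.12 and 2.70 ± 0.078 against ein2, and ndhA and psaI by 2.34 ± 0.088 and 2.25 ± 0.16 against lhp1.

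rps3 was lower than in either single mutant at both temperatures. At 27 °C it had -0.90 ± 0.052 against ein2 and -1.10 ± 0.051 against lhp1, with adjusted p of 4.89e-25 and 4.33e-30. At 21 °C it had -0.33 ± 0.05 against ein2 and -1.01 ± 0.05 against lhp1, with adjusted p of 7.57e-08 and 1.51e-28. ycf1 had -0.96 ± 0.039 and -0.87 ± 0.039 at 27 °C, and rpl16 -0.88 ± 0.045 against lhp1 at 21 °C. With scaling to the plastid rows the splits against ein2 were 50 higher and 31 lower at 27 °C and 27 and 34 at 21 °C, and against lhp1 39 and 24 at 27 °C and 39 and 27 at 21 °C.

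The difference of the warming response from wild type was tested directly as an interaction. In ein2 lhp1, 70 members responded more positively and 11 more negatively than in wild type, where 10.1% of all genes did the first, 6.75% the second and 16.9% were called. In lhp1 the counts were 60 and 8, where 12.4% and 8.25% of all genes were called in these directions and 20.6% in all. In ein2 they were 52 and 7, where 11.9% and 12.2% were called in these directions and 24.1% in all. In ein3 eil1 they were 6 and 26, where 4.07% and 5.39% were called in these directions and 9.46% in all. All 4 comparisons contain the wild-type libraries.

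ndhA had the largest such difference both in ein2 lhp1, at 1.79 ± 0.13 (adjusted p 1.07e-18), and in lhp1, at 2.33 ± 0.14 (adjusted p 1.05e-23). atpB responded less positively than in wild type in all 4 mutants. Its difference was -0.69 ± 0.07 in ein2 lhp1, -0.33 ± 0.07 in lhp1, -0.95 ± 0.071 in ein3 eil1 and -1.20 ± 0.07 in ein2, with adjusted p of 1.21e-12, 0.00019, 1.5e-17 and 1.17e-23. All 4 polymerase genes responded more positively in ein2, lhp1 and ein2 lhp1, with medians of 1.06, 1.00 and 1.13. In ein3 eil1 rps14 differed by -1.23 ± 0.089 (adjusted p 2.55e-18) and 6 of 15 photosystem II genes responded more negatively. With scaling to the plastid rows the splits were 18 higher and 25 lower in ein2 lhp1, 23 and 29 in lhp1, 4 and 26 in ein2 and 1 and 15 in ein3 eil1. Removing a length trend gave 28 and 14 in ein2.

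The nuclear genes that serve plastid RNA were read from a list of 26: 6 sigma factors, the phage-type polymerases RPOTp and RPOTmp, the 12 polymerase-associated proteins PAP1 to PAP12, and 6 genes of RNA turnover. On warming, 3 of them rose and 12 fell in ein2 lhp1, where 14.3% of all genes rose and 14.7% fell. In lhp1 2 rose and 10 fell, where 16.2% and 15.6% of all genes did. In ein3 eil1 8 rose and 7 fell, where 16.9% and 19.9% of all genes did, in ein2 6 and 6, where 11.8% and 15.4% did, and in wild type 7 and 7, where 18.8% and 20.3% did. SIG5, a sigma factor known to respond to light and stress, had a log2 change of -0.45 ± 0.07 in lhp1 (adjusted p 2.77e-07) and 0.24 ± 0.068 in ein3 eil1 (adjusted p 0.00328). It had -0.15 in wild type, -0.19 in ein2 and 0.06 in ein2 lhp1 and was not called there.

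PAP6 was among the 2 largest changes in wild type, ein2, lhp1 and ein3 eil1, where it rose by 0.48, 0.51, 0.54 and 0.46. The other largest changes were PAP10 in wild type, at -0.43, PAP2 in ein2 and ein2 lhp1, at -0.38 and -0.43, the ribonuclease gene RNR1 in ein3 eil1, at 0.56, and RNase E in ein2 lhp1, at -0.56.

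Against wild type most of the same list was lower in ein2 lhp1 and ein3 eil1. At 21 °C, 23 of the 26 were lower and 0 higher in ein2 lhp1, where 16.1% of all genes were lower and 17.6% higher, and 20 were lower and 4 higher in ein3 eil1, where 16.3% were lower and 15.2% higher. At 27 °C 21 were lower and 2 higher in ein2 lhp1, where 23% of all genes were lower and 24% higher, and 20 were lower and 3 higher in ein3 eil1, where 19.2% were lower and 17.4% higher. All 12 PAP genes were lower at 21 °C in both, with medians of -0.73 in ein2 lhp1 and -0.78 in ein3 eil1, and 11 of 12 at 27 °C in both. Over the other settings and the fits that left out 1 library, the number lower was between 17 and 23 of 26 in these 4 comparisons. Scaling to the plastid rows is left out of that range, since it moves nuclear genes down by construction. In lhp1 11 were lower and 0 higher at 21 °C, where 15.7% of all genes were lower and 12.6% higher, and in ein2 12 were lower and 2 higher, where 17.4% were lower and 18.5% higher.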

How the data were processed

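Per the file headers, the authors made the deposited counts with featureCounts 2.0.3 on the Araport11 annotation. They are whole numbers and not normalised. The submitters' processing notes name FastQC, Trim Galore, STAR, Subread 2.0.1, DESeq2 and the genome build TAIR10. Their command lines set paired-end input but did not count pairs, so mates were counted singly, and they set no strand, so overlapping and antisense transcripts cannot be told apart. They set no option for reads that fit several places or several genes. Rows in the inverted repeat (26264 bases, positions 84171 to 110434 and 128215 to 154478 of the plastid genome) and overlapping genes are therefore undercounted and uncertain. Column names read 22 and 28 where the labels read 21 and 27. Each name matched 1 sample by genotype and replicate, and the authors' deposited log2 fold changes from DESeq2, used only for this check, followed the ratio of the columns as 27 over 21 °C (Pearson r across genes 0.9997 to 1.0).

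Genes passing edgeR's filterByExpr by group (21987) were scaled with TMM. The quasi-likelihood model of edgeR 4.0.16 (R 4.3.3) held 1 mean for each of the 10 groups and used all 20 libraries, with 59.6 prior and 10 residual degrees of freedom. Two-sided tests were made in 22 comparisons, with Benjamini-Hochberg adjustment over all genes, and the script was tested on simulated data. The spread (±) of a fold change is its standard error, which rests on the replicate spread of all 10 groups. Total counts of 24153109 to 47566071 per library set the precision, and mates counted singly are not independent. CPM uses TMM library sizes, and CPM per kb the exon length in the tables. Gene symbols and roles come from RefSeq TAIR10.1, matched by coordinates. Named are, in each role, the member with the highest level per kb, in each comparison the 2 largest increases and decreases among called members with at least 2 CPM on average, and 12 fixed genes. Further members, mostly neighbours of these, were named after their values were seen. A gene that this rule names and a sequence window are not reported here. The members, lists and markers were chosen with earlier results of these data known. The comparisons of ein2 lhp1 with each single mutant, the groups of neighbouring genes and the adenine limit were added after the data were seen.

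The other settings tried were DESeq2 1.42.0, its size factors in edgeR, no filter, removal of the 4 nuclear ribosomal RNA rows and AT3G06365, scaling to the plastid rows, removal of a gene length trend (lowess, span 0.3), the replicate number as a block without and with that removal, each library left out in turn, and rows outside the inverted repeat.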

Additional observations from a re-analysis of the deposited data

Results flagged for a closer look

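The warming response was compared with that of wild type by the interaction test in edgeR's quasi-likelihood model. Of 115 plastid genes tested, 81 differed in ein2 lhp1, 68 in lhp1, 59 in ein2 and 32 in ein3 eil1. The shares called over all genes were 16.9%, 20.6%, 24.1% and 9.46% in the same order. Groups of 2 libraries cannot be searched for single outlying samples.

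In ein2 lhp1 the largest differences were those of ndhA at 1.79 and ycf4 at 1.69, and the lowest those of atpB at -0.69 and atpE at -0.53, with adjusted p from edgeR between 1.07e-18 and 7.25e-11. In lhp1 ndhA stood at 2.33 and psaI at 2.12, and rps14 at -0.92 and atpE at -0.46, with adjusted p from edgeR between 1.05e-23 and 4.53e-09.

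In ein2 rps18 stood at 1.60 and rps2 at 1.28, and atpB at -1.20 and ndhJ at -0.78, with adjusted p from edgeR between 1.17e-23 and 3.36e-07. In ein3 eil1 rps18 stood at 0.63, rps14 at -1.23 and the 23S ribosomal RNA row ATCG01180 at -1.0, with adjusted p from edgeR between 2.55e-18 and 3.04e-06. There ycf4 stood at 0.48 (adjusted p 0.0428 in edgeR), a call that 6 of the 8 libraries compared each removed when left out, and 0.30 without the second wild-type library at 27 °C.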

How the results depend on the processing

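Most totals of called plastid genes, both directions together, stayed within 1.5 times their value. The shares of all genes called under these other settings are not given, so the counts below cannot be set against them. Size factors of DESeq2 in edgeR, no filter, removal of nuclear ribosomal RNA, removal of a length trend and rows outside the inverted repeat moved no total beyond that. Removal of a length trend did move the split by direction, to 14 higher and 42 lower for warming in wild type, 40 and 31 for the average, 8 and 35 for ein2 against wild type at 21 °C, 15 and 18 at 27 °C, and 28 and 14 for the response difference in ein2. Scaling to the plastid rows, which removes by construction what the plastid rows share, called 36 members for warming in wild type, 13 in ein2 and 37 in ein3 eil1, 61 for ein2 lhp1, 1 for lhp1 and 23 for ein2 against wild type at 21 °C, 23 for ein2 at 27 °C, 43 in ein2 lhp1, 16 in ein3 eil1 and 30 in ein2 for the response difference, and 61 for ein2 lhp1 against ein2 at 21 °C. DESeq2 called 19 for warming in ein2, 17 for lhp1 at 21 °C and 18 for the response difference in ein3 eil1, and the cause was not tested. With 1 library left out, the count for lhp1 at 21 °C ran from 21 without the second lhp1 library to 43, and was 22 without the first wild-type library. Leaving out 1 library moved no other total beyond 1.5 times.

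Of the 4116 single-gene values under other settings, 4023 kept their direction and their side of the threshold, 51 lost the call, 25 gained it and 17 reversed. All 17 reversals came with scaling to the plastid rows. In ein2 lhp1 against wild type at 27 °C the reversed values were rbcL -0.014, psbM -0.32, rpoB -0.69, atpB -1.61, atpE -1.5, rpoA -1.09, rps14 -1.18 and ndhB (ATCG00890) -0.449, and at 21 °C psbA -0.35 and rbcL -0.23. In lhp1 at 27 °C they were psbA -0.25, rbcL -0.16 and psaA -0.032, and for warming in wild type psbA 0.20, rbcL 0.25, psaA 0.14 and petB 0.22.

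With the replicate number as a replicate block, 74 members were called for warming in wild type, 33 in ein2 and 99 for ein2 lhp1 against wild type at 27 °C, and no count moved beyond 1.5 times. Correlations of the replicate differences between groups, over 45 pairs of groups, ran from -0.0318 to 0.0323 over all genes and from -0.461 to 0.58 over the plastid genes. Over all genes 0 pairs were above 0.1, and same-numbered libraries were taken to share only a number. Over the plastid genes the highest was 0.58, so whether some of the groups shared a batch cannot be told from these values.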
